A study of Homo sapiens with 6 samples.

Results

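The GADD45 family consists of 3 related stress genes, GADD45A, GADD45B and GADD45G, and is described here together with GADD45GIP1, the gene of a protein named for its interaction with GADD45 proteins. These 4 genes were chosen by name out of 63677 gene IDs, with earlier results of the same comparison known. Their differences between the groups are therefore given as a description. Intervals and significance calls printed for them come from a fit over all tested genes. These take no account of the choice and are no evidence of a difference. Each of the 4 symbols belonged to 1 gene ID, and 3 of the 4 genes passed the filter on level, a mean of at least 1 TPM. TPM is an abundance corrected for transcript length and stated as a share of a library. Total RNA of KMS27, an established human myeloma line of malignant plasma cells, was sequenced in 6 libraries. Wild type cells gave 3 libraries per the labels (the controls, lettered a to c here), and cells overexpressing HA-TAZ gave the other 3 (HA-TAZ 1 to HA-TAZ 3). Values of single libraries are listed below in this order of letters and numbers. HA is a peptide tag, and TAZ (gene symbol WWTR1) is a coactivator of transcription under control of the Hippo pathway. The promoter behind HA-TAZ, whether the cells were 1 clone, and whether replicates were separate cultures are not given in the sources used here. P-values therefore measure the spread between these libraries, which may be technical. The titles of the wild type samples also carry HA, and whether those cells received a construct is not stated. The control columns are named scr in the deposited table, a name found in no label, and were assigned to wild type by elimination.

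GADD45 proteins are small acidic proteins without enzymatic activity that act by binding others. They are induced by DNA damage, growth arrest and cytokines, bind the kinase MTK1 (MAP3K4) upstream of p38 and JNK, bind PCNA and the CDK1 and cyclin B complex, and have been linked to active DNA demethylation with TDG. GADD45A is a classical gene of the DNA damage response, and GADD45B is a target of NF-kB that restrains JNK signalling through MKK7 (MAP2K7). GADD45GIP1, also called CRIF1, is a protein of the large subunit of the mitochondrial ribosome and has also been described as a nuclear partner of GADD45 proteins, STAT3 and NR4A1. It is no homologue of the 3 GADD45 genes.

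The kinship of the 3 GADD45 genes is visible in their second coding exon, which has the same length of 102 bases in each gene. It is shown because the family is counted gene by gene, and the sequence tells how far the genes differ. Capitals mark the 49 of 102 positions at which all 3 genes carry the same base, and lower case the others. The sequences are from the transcripts of GENCODE release 29 on GRCh38, plus strand, at chr1:67686025-67686126 for GADD45A, chr19:2476529-2476630 for GADD45B and chr9:89605432-89605533 for GADD45G, and each exon lies wholly in coding sequence.
GADD45A: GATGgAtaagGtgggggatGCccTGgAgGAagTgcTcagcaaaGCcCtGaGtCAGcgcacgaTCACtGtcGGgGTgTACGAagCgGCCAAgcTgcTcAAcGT
GADD45B: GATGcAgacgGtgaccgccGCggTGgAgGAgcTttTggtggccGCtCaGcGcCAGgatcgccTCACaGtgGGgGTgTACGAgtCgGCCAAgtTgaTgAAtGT
GADD45G: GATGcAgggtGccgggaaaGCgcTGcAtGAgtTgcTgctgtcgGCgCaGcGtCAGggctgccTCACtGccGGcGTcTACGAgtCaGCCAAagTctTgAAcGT
GADD45B and GADD45G were the closest pair with 64.7% identity over this exon, and GADD45A shared 60.8% with each of the others. The exon begins after 44 coding bases in GADD45A and GADD45B and after 53 in GADD45G. Each of the 3 main transcripts has 4 exons.

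The members covered a wide range of levels. In the control libraries GADD45GIP1 was at 44.0 ± 4.89 TPM (SD, n = 3), GADD45B at 35.1 ± 1.52 TPM, GADD45A at 2.24 ± 0.207 TPM and GADD45G at 0.0872 ± 0.0888 TPM (SD, n = 3 each). In the HA-TAZ libraries the order was the same, with means of 48.3 ± 2.9, 36.9 ± 1.06, 4.10 ± 0.178 and 0.279 ± 0.0796 TPM (SD, n = 3 each). The lowest control value of GADD45GIP1 (38.5 TPM) lay above the highest of GADD45B (36.9 TPM), so these neighbours did not overlap in either group, and GADD45GIP1 was 1.04 to 1.40 times GADD45B in all 6 libraries. GADD45B was therefore the GADD45 gene these cells carried most of, at 8.36 to 16.7 times the TPM of GADD45A. By mean TPM over the 6 libraries, 90.1% of the 22651 tested genes lay below GADD45GIP1, 86.7% below GADD45B and 32.8% below GADD45A.

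GADD45A had the largest difference of the 3 members that passed the filter, with higher values in HA-TAZ libraries. It was at 3.91, 4.12 and 4.27 TPM with HA-TAZ, against 2.20, 2.47 and 2.06 TPM in the controls. Every HA-TAZ library was above every control library, a pattern that 4.41% of all tested genes showed in this direction in TPM as deposited. The ratio of the means was 1.83 in TPM as deposited. Libraries were also scaled by median-of-ratios factors, which gives scaled TPM. On this scale GADD45A was at 4.52 ± 0.268 and 2.01 ± 0.228 scaled TPM in HA-TAZ and control libraries (SD, n = 3 each), a ratio of 2.25. On log2(scaled TPM + 1), a scale that understates changes of low genes, the difference was 0.88 with a standard error of 0.10 and a 95% interval of 0.63 to 1.12. The same difference was 0.65 with TPM as deposited. In bulk RNA, more RNA per cell and more cells with the RNA cannot be told apart.

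GADD45B, the NF-kB-inducible member, depended on how libraries were scaled. It was at 37.6, 37.5 and 35.7 TPM with HA-TAZ, against 36.9, 34.2 and 34.4 TPM in the controls. In TPM as deposited the groups overlapped, and the ratio of the means was 1.05. In scaled TPM it was at 43.4, 38.7 and 40.1 with HA-TAZ, against 30.5, 31.3 and 32.5 in the controls, without overlap. The log2 fold change was 0.36 after scaling (SE 0.06, 95% interval 0.22 to 0.50) and 0.07 with TPM as deposited (95% interval −0.08 to 0.22). The scaling moved the median of all tested genes from −0.27 to −0.03 on the log2 scale.

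GADD45GIP1, the mitochondrial ribosome protein, behaved like GADD45B in this respect. It was at 47.9, 51.4 and 45.6 TPM with HA-TAZ, against 38.5, 47.9 and 45.5 TPM in the controls. Control a was the low library, control b lay within the range of the HA-TAZ libraries, and control c (45.5 TPM) lay beside their lowest value (45.6 TPM). In scaled TPM the HA-TAZ libraries lay at 51.3 to 55.4 and the controls at 31.8 to 43.9, without overlap. The log2 fold change was 0.43 after scaling (SE 0.13, 95% interval 0.11 to 0.75) and 0.14 with TPM as deposited (95% interval −0.10 to 0.38). Without control a the scaled value was 0.29.

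GADD45G, the least expressed of the family, was close to the limit of detection. It was at 0.366, 0.210 and 0.261 TPM with HA-TAZ, against 0.0248, 0.189 and 0.0479 TPM in the controls. The lowest HA-TAZ library (0.210 TPM) and the highest control (0.189 TPM) were next to each other, and nothing is read from their order. How often genes below the filter split by group in this way was not computed. For its longest transcript, ENST00000252506.6, the mean in the authors' deposited table corresponds to 4.48 estimated counts in a typical library, for which Poisson counting error alone is 47.2%. No fold change is given for this gene, which failed the filter.

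**Figure D1:**
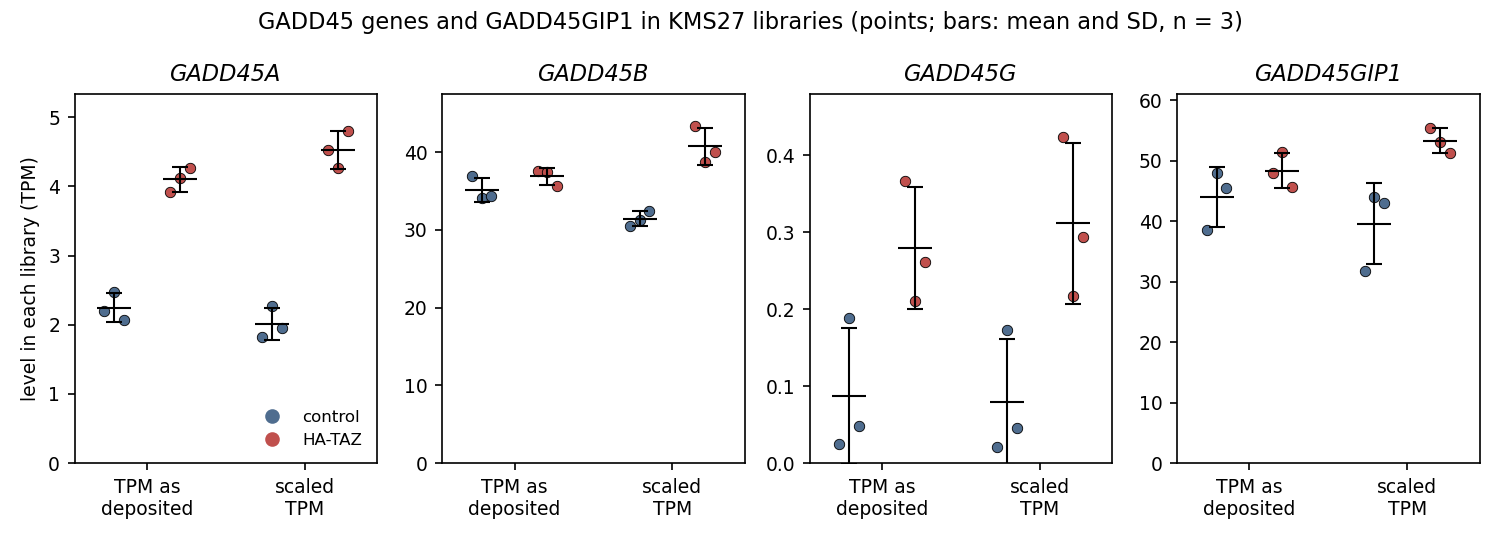
Level of each member in each library (points; vertical axis in TPM, starting at 0, with a separate scale for each gene, which cuts off the lower SD bars of GADD45G in controls) as deposited and after scaling, with the mean and SD of 3 libraries per group. GADD45A separates by group on both scales (1.83-fold and 2.25-fold in the means), whereas GADD45B and GADD45GIP1 overlap in TPM as deposited and separate after scaling.

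In the fit over all 22651 tested genes (limma, Benjamini-Hochberg adjusted p under 0.05), 2 of the 3 members that passed the filter, GADD45A and GADD45B, were called higher, where 4.67% of all genes were called higher, 2.63% lower and 7.29% in either direction. With TPM as deposited, 1 of the 3, GADD45A, was called higher, against 1.15% of all genes. In scaled TPM all 3 had every HA-TAZ library above every control, as had 20.2% of all genes. The members were picked on this comparison, and nothing is read from these counts. GADD45A was called in 2 of the 6 fits that each left out 1 library (those without control a and without control c), and GADD45B in 0 of 6. With all 6 libraries, GADD45B was also not called without the filter on level or without the intensity trend of limma. GADD45A was called in both of these fits.

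A ratio of 2 genes within a library does not depend on the scaling between libraries. GADD45B was 9.60, 9.10 and 8.36 times GADD45A with HA-TAZ, against 16.7, 13.8 and 16.7 times in the controls. This ratio was thus lower in each HA-TAZ library than in each control, without overlap. GADD45B differed little between the groups in TPM as deposited (a ratio of the means of 1.05), so the split restates the values of GADD45A. GADD45GIP1 was 1.28, 1.37 and 1.28 times GADD45B with HA-TAZ, against 1.04, 1.40 and 1.32 times in the controls, with overlap.

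**Figure D2:**
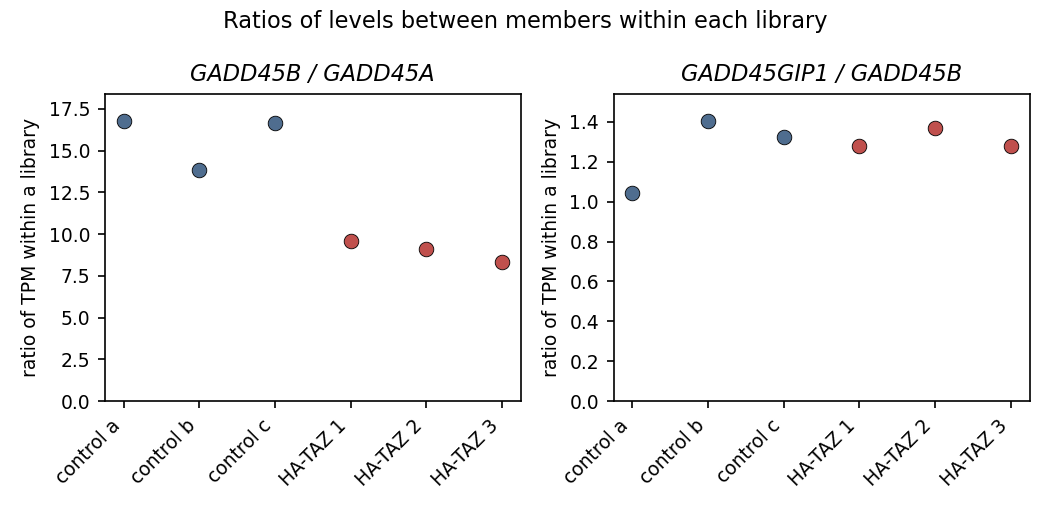
Ratio of the TPM of GADD45B to GADD45A (left) and of GADD45GIP1 to GADD45B (right) within each library, 1 point per library, vertical axis without unit and starting at 0. The ratio of GADD45B to GADD45A lies at 8.36 to 9.60 in HA-TAZ and 13.8 to 16.7 in control libraries, whereas the other ratio overlaps between the groups.

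The RNA of GADD45A and GADD45B was mostly the main coding form of each gene. ENST00000370986.4, the 4-exon coding transcript of GADD45A, was at 2.83, 3.45 and 3.21 TPM with HA-TAZ, against 1.84, 2.03 and 1.73 TPM in the controls. It made up 72.4% to 83.8% of the gene's TPM in HA-TAZ and 82.2% to 83.7% in control libraries. ENST00000370985.3, a coding form that has no part of the 102-base exon printed above, was at 0.182 ± 0.0495 TPM in HA-TAZ libraries (SD, n = 3). Among the controls it was listed at 0.274 TPM in control a and at 0 in control b and control c. GENCODE types the other 2 transcripts, ENST00000484245.1 and ENST00000460575.1, as retained intron, RNA in which an intron has not been removed. Together they took 21.9%, 11.4% and 21.8% of the TPM of GADD45A with HA-TAZ, against 4.08%, 17.8% and 16.3% in the controls, with overlap. Without them the log2 fold change of GADD45A was 0.77.

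For GADD45B the coding transcript ENST00000215631.4 averaged 28.97 ± 1.42 TPM with HA-TAZ and 27.7 ± 0.748 TPM in the controls (SD, n = 3 each). The 2 retained-intron transcripts of GADD45B, ENST00000592937.1 and ENST00000586759.1, took 17.4% to 21.1% of its TPM with HA-TAZ and 17.1% to 18.5% without. The other 4 transcripts of GADD45B each had a mean under 1 TPM in both groups, and 2 of them were listed at 0 in 3 or more libraries. GADD45GIP1 had 1 transcript in the table, ENST00000316939.1. Of the 3 transcripts of GADD45G, ENST00000494726.1 was listed at 0 in all 6 libraries.

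**Figure D3:**
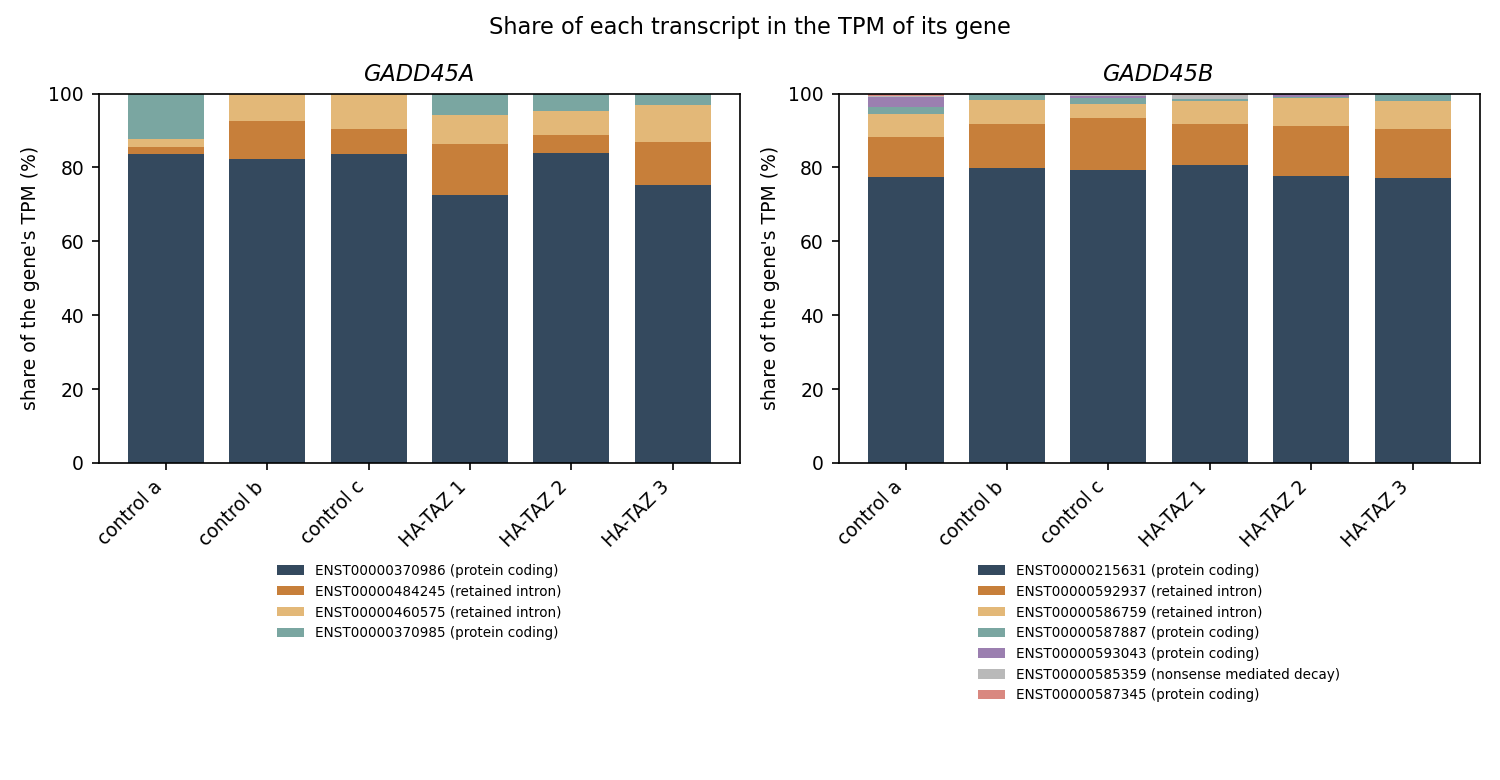
Share of each transcript in the TPM of GADD45A (left) and GADD45B (right), in percent, 1 stacked bar per library, with the GENCODE release 29 type in the key. The main coding transcript (dark blue) takes 72.4% to 83.8% of GADD45A, and the retained-intron transcripts (orange shades) vary from 4.08% to 21.9% of it without a split by group.

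The authors' deposited table holds their own test of single transcripts, a Wald test of sleuth. Of the 15 member transcripts, 10 had statistics in the authors' deposited table. Of these, 3 had a q-value under 0.05 and a positive effect, as had 4.08% of all 109487 transcripts with statistics. These 3 were the main transcripts of GADD45A, GADD45B and GADD45GIP1. Nothing is read from this count either, since it is the same comparison. The authors' values were taken to rest on estimated counts scaled between libraries, so they are no check apart from scaling. In the authors' deposited table the effect on the natural log scale was 0.75 (SE 0.128) for ENST00000370986.4 of GADD45A, 0.269 (SE 0.0641) for ENST00000215631.4 of GADD45B and 0.314 (SE 0.101) for ENST00000316939.1 of GADD45GIP1. Back-transformed means of the authors' deposited table gave 209.9 estimated counts in a typical library for the first of these, 2212 for the second and 1651 for the third, or a Poisson counting error of 6.90%, 2.13% and 2.46%.

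The promoters of GADD45B and GADD45G were compared because these genes are the closest pair in sequence and lay far apart in level. The RefSeq promoter table (GRCh38.p14) held an entry for 3 of the 4 members, not for GADD45A. The 250 bases before the annotated start are printed on the plus strand, for GADD45B at chr19:2475877-2476126 and for GADD45G at chr9:89604762-89605011. Capitals mark the CCAAT box, the E-box (CACGTG) and the box near the start that reads TATAAA in GADD45B and TATATAA in GADD45G.
GADD45B: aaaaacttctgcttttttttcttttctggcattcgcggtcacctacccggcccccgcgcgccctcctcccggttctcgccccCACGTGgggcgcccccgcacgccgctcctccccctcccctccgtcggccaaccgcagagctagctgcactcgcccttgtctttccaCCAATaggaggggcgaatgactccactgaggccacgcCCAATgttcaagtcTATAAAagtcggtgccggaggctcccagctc
GADD45G: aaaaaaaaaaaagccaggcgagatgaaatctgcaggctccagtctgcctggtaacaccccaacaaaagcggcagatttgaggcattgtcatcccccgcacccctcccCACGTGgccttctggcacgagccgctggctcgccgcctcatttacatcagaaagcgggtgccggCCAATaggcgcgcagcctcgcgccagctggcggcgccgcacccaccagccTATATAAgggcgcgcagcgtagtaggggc
The layout was alike, with a CACGTG at bases −168 to −163 in GADD45B and −143 to −138 in GADD45G, a CCAAT at −82 to −78 and −79 to −75, and a TATA box at −31 to −26 and −29 to −23. GADD45B had a second CCAAT at −45 to −41. Of all 35116 promoters of this length, 32.0% held CCAAT, 6.34% CACGTG, 10.7% TATAAA and 2.42% TATATAA on either strand. A kB motif, the NF-kB site, matched at 2 places in GADD45B, at 1 in GADD45GIP1 and at 0 in GADD45G, and 9.96% of all promoters held one. Its matches on the 2 strands can overlap. GGGCGG matched once in GADD45GIP1 and not in the other 2 windows (42.6% of all promoters). The window of GADD45GIP1 (chr19:12957224-12957473, minus strand) also held TATAAA at −138 to −133 and neither CCAAT nor CACGTG. The TEAD motif GGAATG (11.9% of all promoters), the AP-1 motif TGANTCA (6.57%) and the core of the interferon response element (3.02%) had no match in the 3 windows. These are matches of letters in these windows on either strand and show no binding.

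By the profile over the 6 libraries, the gene most like GADD45A was ATF3, a stress-induced transcription factor, with a root mean square distance of 0.03 on the centred log2 scale. LURAP1L (0.04) and MYCL (0.05) followed. ATF3 was at 28.0, 25.6 and 27.6 scaled TPM with HA-TAZ, against 13.1, 15.6 and 14.3 in the controls. Its log2 fold change was 0.87 and that of GADD45A 0.88, a likeness that follows from picking the nearest profile on this scale. With a pseudocount of 0.1 the values were 0.91 for ATF3 and 1.13 for GADD45A. Within 0.1 of GADD45A lay 31 genes. For GADD45B 1801 genes lay that close, with CDC25A, ASNA1 and PHB2 nearest (0.02 each), and for GADD45GIP1 453 genes, with ZNF286B (0.02), MRPS2 (0.03) and NDUFS3 (0.04) nearest. The last 2 encode a protein of the small subunit of the mitochondrial ribosome and a subunit of respiratory complex I. These counts are out of 22651 tested genes. The distance is not adjusted for the size of a gene's differences, so the counts are not compared between members.

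**Figure D4:**
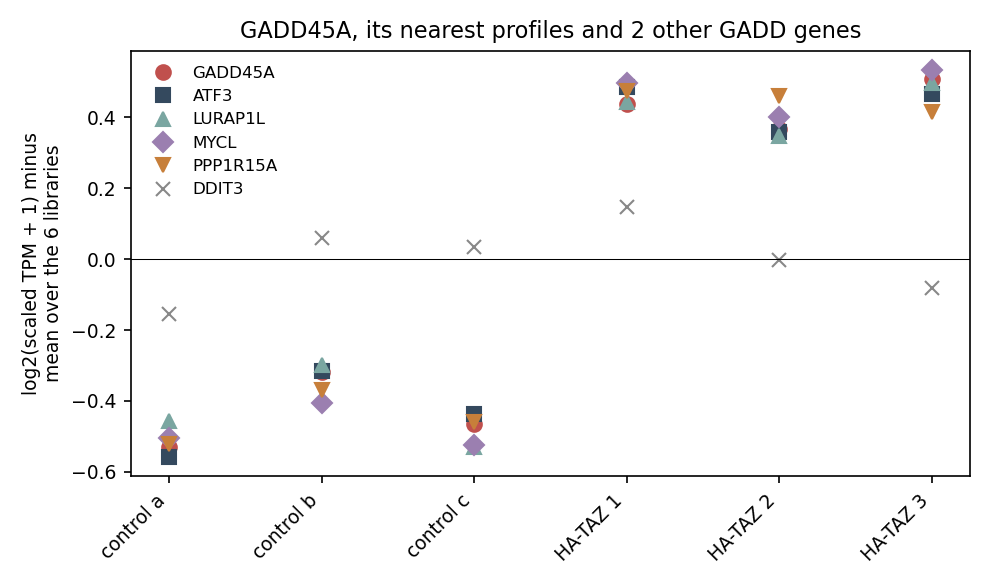
Profiles over the 6 libraries (horizontal axis) as log2(scaled TPM + 1) minus the mean of each gene (vertical axis, log2 scale), for GADD45A, the 3 genes nearest to it and the GADD genes PPP1R15A and DDIT3. GADD45A, ATF3, LURAP1L, MYCL and PPP1R15A are above 0.3 in each HA-TAZ library and at or below −0.29 in each control, and DDIT3 shows no such split.

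Genes linked to the members were taken from 7 lists, 6 of GADD45 pathway genes and 1 of the large subunit of the mitochondrial ribosome. Of their 118 genes 112 passed the filter. The lists were chosen with earlier results of these data known, so the shares called are a description. Shares over all tested genes, here and for each list below, cover every level above the filter. They are not matched to the levels of the listed genes, and no enrichment is read from them. In the fit over all genes, 19 were called higher (17.0%, against 4.67% of all tested genes) and 1 lower (2.63% of all tested genes; limma, Benjamini-Hochberg adjusted p under 0.05). The median log2 fold change was 0.18, against −0.03 over all tested genes. With TPM as deposited 5 were called higher (1.15% of all tested genes) and 11 lower (13.5% of all tested genes), with a median of −0.11, against −0.27 over all tested genes. Leaving out any 1 library left 2 to 6 of the 112 called higher and 0 lower. In these fits 115 to 433 of the 22651 tested genes were called in either direction. Of the 65 tested genes of the 6 GADD45 pathway lists alone, 11 were called higher (16.9%, against 4.67% of all tested genes) and 1 lower. Their median log2 fold change was 0.11. With TPM as deposited 4 of these 65 were called higher and 11 lower.

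Of the transcription factors reported upstream of GADD45 genes, 3 of 16 tested were called higher (18.8%, against 4.67% of all tested genes) and 0 lower. With TPM as deposited 1 was called higher (against 1.15% of all tested genes) and 1 lower (against 13.5% of all tested genes). ATF3 rose by 0.87 on the log2 scale (SE 0.08, limma, Benjamini-Hochberg adjusted p = 0.00899), EGR1, an early growth response factor, by 0.58 and NFYA, a subunit of the CCAAT-binding factor, by 0.34. EGR1 (0.41) and NFYA (0.05) were not called with TPM as deposited. ATF3 lost its call without HA-TAZ 1 (limma, adjusted p = 0.0549, range over the 6 such fits 0.0233 to 0.0549), and EGR1 and NFYA lost theirs in each of these fits. FOXO3, a forkhead factor, had a log2 fold change of 0.03 and was not called.

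Of the genes of the cascade from MTK1 to p38 and JNK, kinases and the transcription factor ATF2, 2 of 13 tested were called higher (15.4%, against 4.67% of all tested genes) and 1 lower. With TPM as deposited 1 was called higher (against 1.15% of all tested genes) and 4 lower (against 13.5% of all tested genes). MAP3K4, the MTK1 kinase that GADD45 proteins bind, was at 21.4, 20.3 and 21.2 scaled TPM with HA-TAZ, against 24.9, 24.6 and 25.4 in the controls, and fell by 0.24 on the log2 scale (SE 0.05, limma, Benjamini-Hochberg adjusted p = 0.0416). MAPKAPK2, a kinase activated by p38, rose by 0.75 (SE 0.05, limma, adjusted p = 0.00268), and its call held whichever library was left out. Its TPM is listed with the same values under 2 gene IDs, so its level is uncertain. MAP2K3, a kinase that activates p38, rose by 0.22 (limma, adjusted p = 0.0449) but had −0.06 with TPM as deposited. The calls of MAP3K4 and MAP2K3 were lost whichever library was left out. MAP2K7, the partner of GADD45B, had a log2 fold change of 0.36 and MAPK14, the main p38 kinase, of −0.09, and neither was called. MAPK14 was called lower with TPM as deposited (−0.38, limma, adjusted p = 0.0312).

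Of the cell cycle and PCNA partners, 2 of 11 were called higher (18.2%, against 4.67% of all tested genes) and 0 lower, CDC25B (0.44) and CCNB1 (0.27, both log2 fold changes), which encode a phosphatase that activates CDK1 and its cyclin. CDC25B had 0.14 and CCNB1 −0.03 with TPM as deposited. In that fit none of the 11 was called, where 1.15% of all tested genes were called higher and 13.5% lower. CDC25B held its call only without control a or control c among the fits that left out a library, and CCNB1 in none. CDK1 (0.04), PCNA (0.16) and the CDK inhibitor CDKN1A (0.51, all log2 fold changes) were not called. Of the genes of active DNA demethylation and excision repair, ING1, which encodes a chromatin reader that binds GADD45A, was the 1 of 14 called higher (7.14%, against 4.67% of all tested genes), by 0.41, a call lost in each fit without 1 library, and 0 were called lower. With TPM as deposited 0 were called higher (against 1.15% of all tested genes) and 5 lower (against 13.5% of all tested genes). The median was then −0.32, against −0.27 over all tested genes, and ING1 had 0.14 and was not called. TDG had a log2 fold change of 0.10 and was not called.

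Of the 8 other DNA damage and stress inducible genes, 2 were called higher (25.0%, against 4.67% of all tested genes) and 0 lower. With TPM as deposited 1 was called higher (against 1.15% of all tested genes) and 1 lower (against 13.5% of all tested genes). PPP1R15A, known as GADD34 and a regulator of translation under stress, was at 47.1, 46.7 and 45.2 scaled TPM with HA-TAZ, against 23.1, 25.8 and 24.2 in the controls. It rose by 0.90 on the log2 scale (SE 0.05, limma, Benjamini-Hochberg adjusted p = 0.00268), and kept its call whichever library was left out. PPP1R15B, its constitutive paralogue, rose by 0.29, a call lost whichever library was left out, and had −0.0013 with TPM as deposited. DDIT3, known as GADD153 and CHOP, had a log2 fold change of 0.04, and it was not called.

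Around GADD45GIP1, STAT3 was the 1 of 3 tested nuclear partners that was called higher (33.3%, against 4.67% of all tested genes), and 0 were called lower. Its log2 fold change was 0.59 (SE 0.06, limma, Benjamini-Hochberg adjusted p = 0.0122). The call of STAT3 held in the fits without control a and without control c but not in the other 4. Of the 47 genes of the large mitochondrial ribosome subunit with MRPL names, 8 were called higher (17.0%, against 4.67% of all tested genes) and 0 lower, and their median log2 fold change was 0.26, next to 0.43 for GADD45GIP1. MRPL55 (0.56), MRPL53 (0.41), MRPL9 (0.40) and MRPL43 (0.38) had the largest called log2 fold changes. With TPM as deposited the median of these 47 genes was −0.03, against −0.27 over all tested genes. In that fit 1, MRPL55, was called higher (against 1.15% of all tested genes) and 0 lower (against 13.5% of all tested genes). With a filter at a mean of 5 TPM 17 were called higher, without a filter 4 and without trend 3. The calls over all genes, in either direction, numbered 2240, 691 and 758 in these fits. The number of genes tested changes with the filter, and higher calls alone were not counted over all genes there. These counts are therefore not compared with a share over all genes. Without 1 library, 0 or 1 of the 47 was called higher, where 115 to 433 of the 22651 tested genes were called in either direction.

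**Figure D5:**
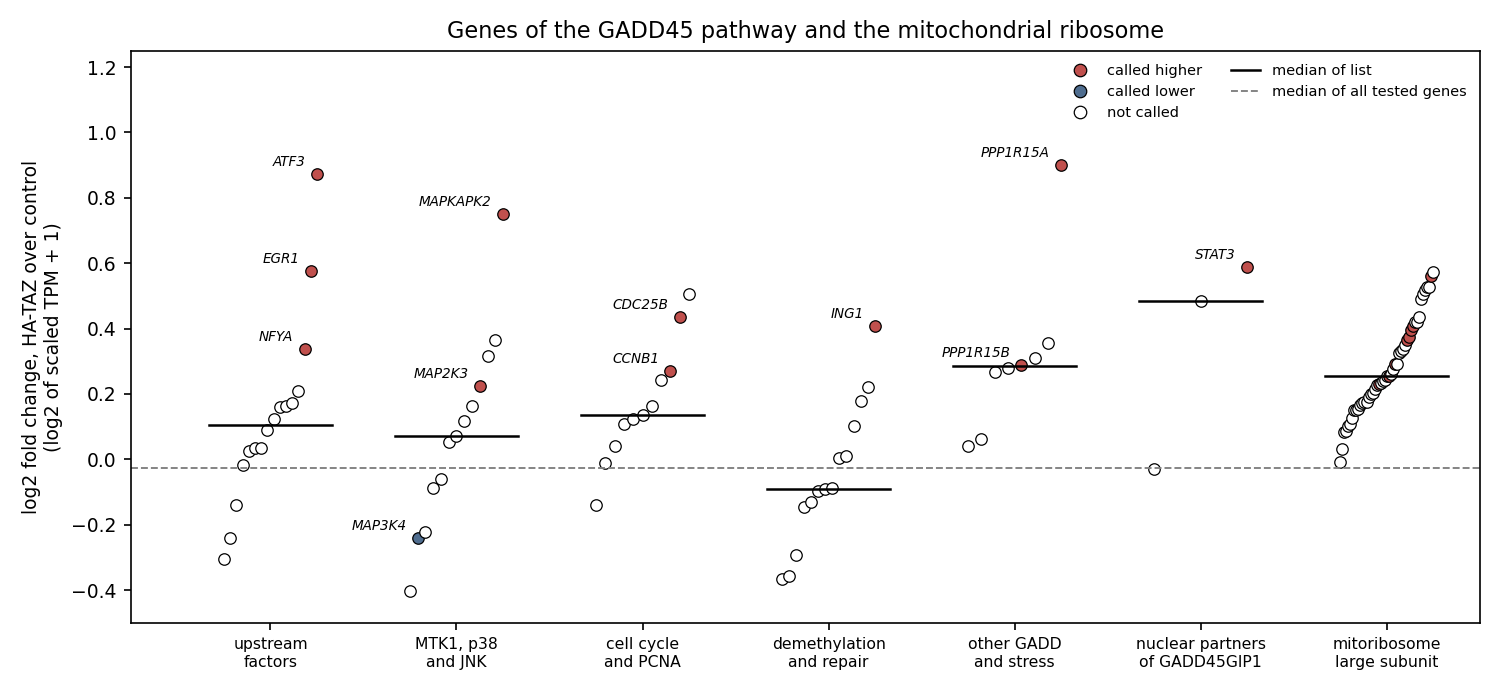
Log2 fold change of HA-TAZ over control on log2(scaled TPM + 1) (vertical axis) for each tested gene of the 7 lists (horizontal axis), red where called higher, blue where called lower and white where not called (limma, adjusted p under 0.05). Solid lines are list medians and the dashed line the median of all tested genes, −0.03. ATF3, MAPKAPK2 and PPP1R15A lie highest among the called genes, and MAP3K4 is the 1 gene called lower.

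The labels were checked on the overexpressed gene and on markers. WWTR1 ranged from 293 to 306 TPM with HA-TAZ and from 1.69 to 2.69 TPM in the controls. Of 9 plasma cell markers 7 were above 10 TPM in every library, CD38 and SLAMF7 being the others. The 9 summed to 2785 to 3217 TPM with HA-TAZ and to 4270 to 4825 TPM in the controls, most of it from IGJ, the joining chain of immunoglobulins. The summed markers of T cells, monocytes, fibroblasts, epithelium and red cells were at most 0.679, 2.20, 4.89, 1.70 and 2.20 TPM in any library. The sums for plasma cells, T cells (0.127 to 0.216 TPM in HA-TAZ, 0.596 to 0.679 TPM in control libraries) and epithelium (1.04 to 1.15 and 1.45 to 1.70 TPM) were lower in HA-TAZ libraries without overlap. These sums are in TPM as deposited, where the median log2 fold change of all tested genes was −0.27. Among the plasma cell markers SLAMF7 went the other way (6.55 to 7.78 TPM in HA-TAZ, 3.50 to 4.51 TPM in control libraries), and SDC1 overlapped between the groups. The part of cell types in the members' values was not tested. The scaling factors were 0.866 to 0.967 in HA-TAZ and 1.06 to 1.21 in control libraries, so the scaling itself separated the groups, and its part in the differences of GADD45B and GADD45GIP1 is given by the values on both scales above.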

How the data were processed

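Total RNA of 6 KMS27 libraries was depleted of ribosomal RNA and sequenced, per the labels' protocols. The submitters' processing notes name FastQC, MultiQC, kallisto 0.46.0, sleuth 0.30.0 and GRCh37, without roles. The authors deposited TPM for 215170 transcripts, which sum to the same total in each library, so the depth of single libraries is unknown. Per the file headers, the authors' deposited table also holds p-values and q-values, effects, means and standard errors on a log scale. The authors' deposited effects were taken to be natural log values, the default of sleuth, and estimated counts quoted above are back-transformed means. The library kit keeps strand, per the labels' protocols, but use of strand in the quantification is not given in the sources used here.

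Transcript TPM was summed per gene ID with the pairing in that table. Genes with a mean of at least 1 TPM were tested. TPM was divided by a median-of-ratios factor over 21512 genes, and log2(scaled TPM + 1) was fitted with limma 3.58.1 (R 4.3.3) with an intensity trend, both directions, with Benjamini-Hochberg adjustment over all genes. On simulated data with 200 of 22651 genes changed by 1 on the log2 scale, 59.5% were recovered. No 2 libraries held identical values. Python 3.11.15, numpy 2.4.6, pandas 2.3.3, scipy 1.17.1 and matplotlib 3.10.9 were used.

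The members and lists were chosen with earlier results of these data known. The rule for named genes was the called genes of each list, at most 4 by size, plus 12 partners by name (1 of them is not reported here), and the 3 nearest profiles for each member that passed the filter. Alternatives were TPM as deposited, a pseudocount of 0.1, other filters, no trend, the most abundant transcript of a member, leaving out each library and, chosen after seeing the data, members without retained-intron transcripts. No list was tested as a set.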

Additional observations from a re-analysis of the deposited data

How the results depend on the processing

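The fitted differences of GADD45A, GADD45B and GADD45GIP1 were positive under each alternative run (GADD45A had no value with a mean of at least 5 TPM), but with TPM as deposited GADD45B and GADD45GIP1 overlapped between the groups. The call of GADD45B was lost with TPM as deposited, without a filter, without trend and whichever library was left out. The log2 fold change of GADD45A was 0.65 with TPM as deposited, 1.13 with a pseudocount of 0.1, 0.75 for its most abundant transcript and 0.77 without retained-intron transcripts, that of GADD45B 0.069 and that of GADD45GIP1 0.14 with TPM as deposited. With 1 library left out they ranged from 0.83 to 0.94, 0.32 to 0.40 and 0.29 to 0.51. The 1652 called genes (64.0% higher) became 3329 with TPM as deposited (7.84% higher), 691 without a filter, 758 without trend, 2240 with a mean of at least 5 TPM, and 115 to 433 when a library was left out. The 19 genes of the 7 lists called higher became 5, 10, 10, 27, and 2 to 6 in the same settings. Apart from TPM as deposited, calls over all genes in these alternatives were not split by direction, so no shares are compared. The 1 called lower, MAP3K4, became 11 with TPM as deposited, 2 with a pseudocount of 0.1 or a mean of at least 5 TPM, 0 without a filter or without trend, and 0 when any library was left out. The median log2 fold change of all tested genes was −0.27 with TPM as deposited and −0.03 after scaling, and fits without 1 library held fewer libraries. The cause of these changes was not tested.

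With TPM as deposited the log2 fold changes of MAP2K3 (−0.064), CCNB1 (−0.026), PPP1R15B (−0.0013), CDK1 (−0.26), PCNA (−0.14), FOXO3 (−0.26), DDIT3 (−0.24) and TDG (−0.18) turned negative, and MAPK14 (−0.38) became a lower call. Small changes without a call crossed 0 when a library was left out, with a range of −0.019 to 0.097 for CDK1, −0.0040 to 0.064 for FOXO3 and −0.025 to 0.093 for DDIT3. No paired analysis was possible because the control columns carry the name scr, found in no label, so that their numbers point to no particular wild type sample.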
